A study of Mus musculus with 32 samples.

Results

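The activity-dependent immediate early genes are transcribed within minutes of synaptic or growth factor input, without the need for new protein. They were followed here in the striatum of a Huntington's disease mouse series through 10 members, Fos, Fosb, Junb, Egr1, Egr2, Egr3, Egr4, Arc, Npas4 and Nr4a1. The members were a list of symbols, matched to Ensembl identifiers through GENCODE M21. All 10 were among the 54532 genes of the count table, and all 10 were among the 16610 genes that passed the filter on low counts. Striatal RNA was sequenced from 32 mice at 6 months of age, with 8 mice in each of 4 genotypes. Wild-type (WT) and Msh3-/- mice carried no expanded Htt allele, and zQ175 and zQ175:Msh3-/- mice carried the zQ175 knock-in allele, an expanded CAG repeat in the mouse Htt gene, on a C57BL/6J background. Msh3 encodes a mismatch repair protein that acts in the somatic expansion of the CAG repeat, and the Msh3-/- line is a single CRISPR deletion line. WT, Msh3-/- and zQ175 each held 4 males and 4 females, and zQ175:Msh3-/- held 5 males and 3 females. Mice are named here by their sex and the number in the labels, as F1 or M2.

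These genes are the first transcriptional layer of the response of a neuron to activity. Calcium entry and receptor signalling activate kinases such as ERK and CaMKIV, and these act on factors already bound at the promoters, chiefly CREB at the cAMP response element (CRE) and SRF with its ternary complex partners at the CArG box. In spiny projection neurons of the striatum, dopamine and glutamate converge on this pathway. Fos, Fosb and Junb encode subunits of the AP-1 transcription factor. The 4 Egr genes encode zinc finger factors, Npas4 a basic helix-loop-helix factor that shapes inhibitory synapses, and Nr4a1 an orphan nuclear receptor. Arc is the exception among the 10, as its product is no transcription factor but a synaptic protein that promotes the removal of AMPA receptors.

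Since the members varied together between mice, as described further on, the sequence just before their start sites is shown for 5 of them. RefSeq windows of the GRCm38.p6 build were found for 7 members and not for Arc, Egr1 and Egr3. The windows printed are the 250 bases before a start, read 5′ to 3′ on the strand of the gene. They lie at chr10:67537619-67537868 on the plus strand for Egr2, chr6:85513590-85513839 on the minus strand for Egr4, chr12:85473640-85473889 on the plus strand for Fos, chr19:4989972-4990221 on the minus strand for Npas4 and chr15:101266596-101266845 on the plus strand for Nr4a1. Capitals mark the core of the CRE, TGACG or its reverse complement CGTCA, and in Egr2 also the CArG box, which is the run of 10 capitals.
Egr2: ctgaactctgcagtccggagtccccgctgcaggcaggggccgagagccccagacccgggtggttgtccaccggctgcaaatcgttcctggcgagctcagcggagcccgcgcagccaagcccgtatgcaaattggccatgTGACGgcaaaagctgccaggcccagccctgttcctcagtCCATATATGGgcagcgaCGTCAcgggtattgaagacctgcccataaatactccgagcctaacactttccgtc
Egr4: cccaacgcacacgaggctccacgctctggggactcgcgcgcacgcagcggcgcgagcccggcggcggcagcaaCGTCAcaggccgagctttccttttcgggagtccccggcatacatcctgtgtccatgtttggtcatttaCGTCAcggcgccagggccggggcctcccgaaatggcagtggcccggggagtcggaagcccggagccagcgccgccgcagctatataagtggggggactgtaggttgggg
Fos: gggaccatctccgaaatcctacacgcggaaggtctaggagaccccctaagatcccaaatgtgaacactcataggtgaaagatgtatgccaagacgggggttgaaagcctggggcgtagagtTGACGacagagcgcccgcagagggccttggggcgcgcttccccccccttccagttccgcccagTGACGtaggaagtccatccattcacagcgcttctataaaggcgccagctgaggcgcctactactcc
Npas4: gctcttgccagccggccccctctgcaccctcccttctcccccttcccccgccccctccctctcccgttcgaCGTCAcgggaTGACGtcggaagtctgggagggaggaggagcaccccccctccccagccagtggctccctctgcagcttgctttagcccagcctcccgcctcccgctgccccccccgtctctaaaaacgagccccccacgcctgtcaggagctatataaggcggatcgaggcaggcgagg
Nr4a1: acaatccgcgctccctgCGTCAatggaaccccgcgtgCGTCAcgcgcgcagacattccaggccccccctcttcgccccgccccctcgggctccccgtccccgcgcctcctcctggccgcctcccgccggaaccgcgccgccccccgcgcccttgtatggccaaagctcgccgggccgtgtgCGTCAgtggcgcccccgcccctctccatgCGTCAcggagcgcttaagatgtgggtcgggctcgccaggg
The CRE core, searched on both strands, was present in at least 1 window of each of the 7 members, Fosb and Junb included, and in 17.8% of the 32851 windows of this length in the table. Nr4a1 held 4 copies, and Egr4, Fos, Npas4 and the Egr2 window shown held 2 each. The CArG box was present in Egr2 alone among the 7 members and in 1.47% of all windows. The full CRE, TGACGTCA, which contains the core, was in none of the members' windows and in 1.55% of all windows. A MEF2 site (2.92% of all windows) and the AP-1 site TGANTCA (6.75%) were in none of them either. Only exact matches to each pattern within these 250 bases were counted. A CArG box or other site farther from the start, or with a mismatch, was not looked for, so its absence here does not show that a member lacks one. Egr2 has 5 windows in the table, several of which overlap, and a match is a run of letters, not a site shown to be bound. The Egr2 windows at chr10:67535249-67535498 and chr10:67537316-67537565 held no CRE core. The shares are per window, while a member with more windows has more places for a match. The part of these runs in the shared variation was not tested.

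In WT striatum the members spanned a wide range of levels. On the scale of transcripts per 1000000 (TPM), which corrects for gene length and depth, Egr1 was the most abundant, at 227.6 ± 37.0 TPM (SD, n = 8). Egr3 followed at 139.0 ± 20.3 TPM, below every Egr1 value, and Arc stood at 107.1 ± 37.4 TPM. Junb, at 99.4 ± 24.5 TPM, and Nr4a1, at 98.6 ± 26.9 TPM, could not be ordered, since the ranges of Egr3, Arc, Junb and Nr4a1 overlapped from each to the next. Egr4 was at 56.9 ± 8.93 TPM, and its range reached into that of Nr4a1. The 4 lowest members were clearly apart from Egr4 and not from each other, with Fos at 18.5 ± 9.05 TPM, Npas4 at 14.7 ± 5.72 TPM, Fosb at 14.1 ± 1.89 TPM and Egr2 at 9.85 ± 2.72 TPM.

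The depth was 12359347 to 25030335 reads assigned to genes per mouse, so the least sampled value of any member was one of 39 reads, for Egr2. Msh3, the targeted gene, was at 10.4 to 14.2 CPM, the counts per 1000000 reads, in the 16 mice labelled Msh3-/- or zQ175:Msh3-/- and at 22.8 to 27.5 CPM in the other 16, so the ranges did not overlap. These are counts over the whole gene, the deleted part was not counted apart, and they do not tell a homozygous from a heterozygous deletion. The 10 striatal spiny neuron markers, among them Ppp1r1b and Drd1, were present in every mouse, with a summed level of 4397 to 10220 CPM. Markers of cortical excitatory neurons were also present, at 37.8 to 641 CPM in sum without Nrgn, which striatal neurons also express.

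Which members responded to the zQ175 allele was asked first on the Msh3+/+ background. Egr2 and Egr3 of the Egr family were lower in zQ175 than in WT mice, and the other 8 members did not pass the test. A gene was called when its adjusted p from the quasi-likelihood test of edgeR was under 0.05 and its change was at least 1.2-fold. By this rule, 11.6% of the 16610 genes tested were called, 6.89% as lower, against 2 of the 10 members, both lower. Of the 10 fold changes, 8 were below 0, as were 47.0% of those of all genes, and their median was -0.34 on the log2 scale against 0.01 for all genes. As the members varied together between mice, described further on, the 10 fold changes are not separate observations.

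**Figure D1:**
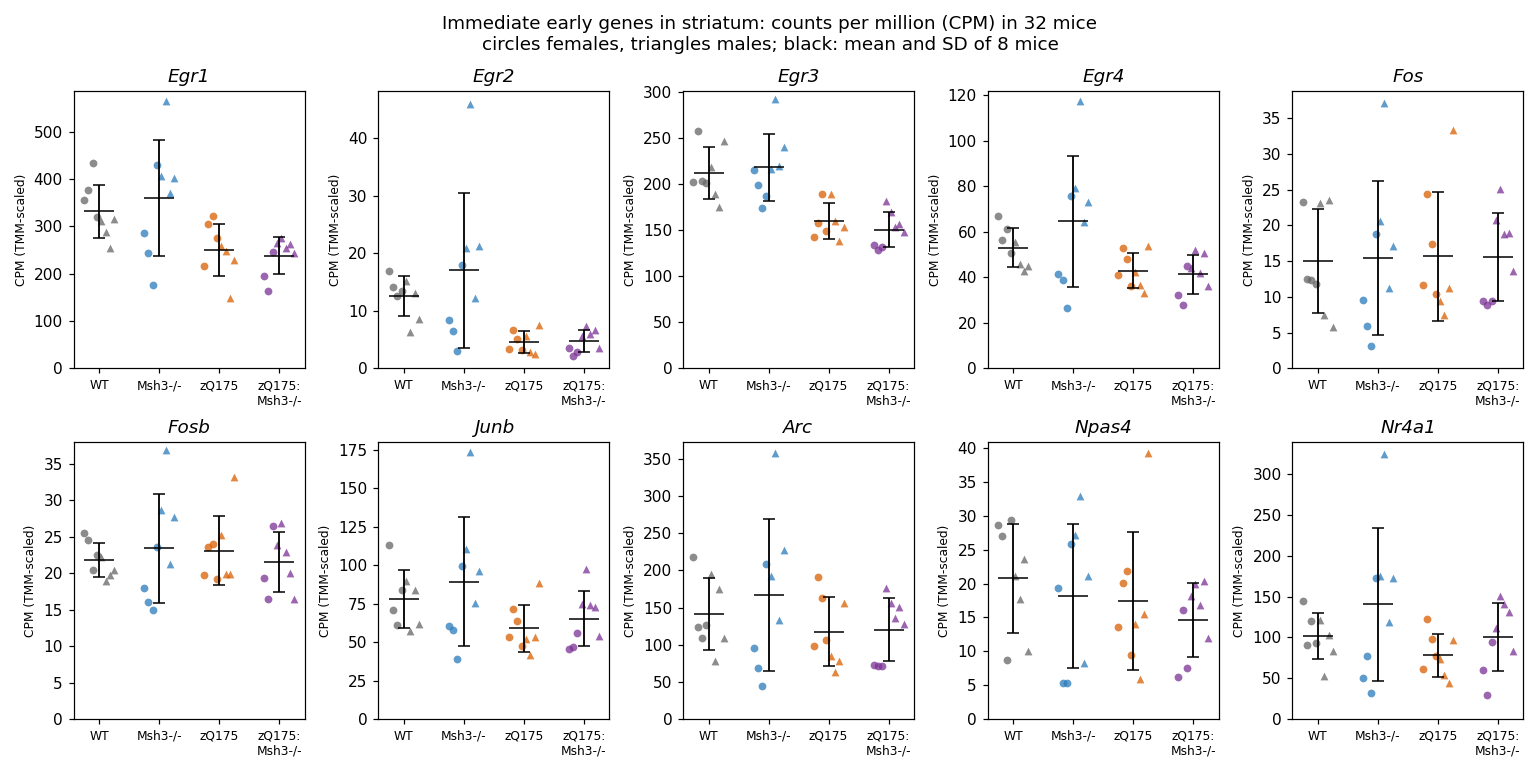
Level of each member in each mouse, in CPM scaled by TMM on a linear axis from 0, by genotype. Circles are females, triangles are males, and the black line and bar are the mean and SD of 8 mice. The zQ175 and zQ175:Msh3-/- mice sit low for Egr2 and Egr3, and the Msh3-/- mice span the widest range in CPM for every member except Npas4, whose range is widest in zQ175 mice.

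Egr2 encodes the factor also known as Krox20, and it showed the largest change of the 10. In WT mice its level was 6.39 CPM at the lowest, 13.2 at the median and 16.9 at the highest, and in zQ175 mice 2.52, 4.24 and 7.57 CPM. All 8 zQ175 mice lay below the WT median and 6 of them lay below every WT mouse, the remaining overlap being with WT M2. The mean fell from 12.5 ± 3.44 to 4.60 ± 1.90 CPM (SD, n = 8 each), a log2 fold change of -1.45 ± 0.39 (SE; edgeR adjusted p = 0.00589), or 2.73-fold lower. In males alone, with 4 mice in each group, the log2 fold change was -1.24 and was not called (edgeR adjusted p = 0.106). The exact permutation test of the log2 CPM over all 12870 arrangements of 8 mice against 8 gave p = 0.000466.

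Egr3, which lies at chr14:70077203-70082614 and encodes a factor best known for muscle spindle development, changed less but varied little between mice. Its level ran from 175.4 through a median of 202.9 to 258.4 CPM in WT mice and from 138.6 through 156.2 to 189.7 CPM in zQ175 mice. Again 6 of the 8 zQ175 mice were below every WT mouse. The log2 fold change was -0.40 ± 0.095 (SE; edgeR adjusted p = 0.00175; exact permutation p = 0.00124), and in males alone it was -0.37 and was not called (edgeR adjusted p = 0.0640).

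Egr1 (Zif268) and Egr4, the remaining members of the family, had lower means in zQ175 mice but were not called. Egr1 ranged from 253.9 to 434.1 CPM, with a median of 317.4, in WT mice and from 148.4 to 321.3 CPM, with a median of 253.4, in zQ175 mice, so that 4 zQ175 mice lay below every WT mouse. Its log2 fold change of -0.41 ± 0.18 (SE) was the same size as that of Egr3, with an edgeR adjusted p of 0.0886 and an unadjusted exact permutation p of 0.00808. Egr1 passed in the fit of the 2 groups alone (edgeR adjusted p = 0.0481) and when Msh3-/- F3, a mouse of neither group that enters the shared estimate of the spread, was left out (edgeR adjusted p = 0.0492). Egr4 was 33.1 to 53.7 CPM in zQ175 mice and 42.6 to 66.9 CPM in WT mice, with medians of 41.6 and 53.2 CPM and a log2 fold change of -0.30 ± 0.21 (SE; edgeR adjusted p = 0.301).

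None of the 3 AP-1 subunits was called. Junb, at chr8:84974484-84978718, was 57.3 to 113.4 CPM in WT mice and 41.4 to 88.3 CPM in zQ175 mice, with medians of 77.5 and 53.3 CPM, and 5 zQ175 mice lay below every WT mouse (log2 fold change -0.41 ± 0.23 SE; edgeR adjusted p = 0.207). Prdx2, on the opposite strand, overlaps Junb and had 213% of its counts. As it is not known whether the counting used strand, reads from the stretch they share cannot be told apart. The length of that stretch was not measured. Fos had nearly equal means, 15.0 ± 7.30 CPM in WT and 15.7 ± 8.98 CPM in zQ175 mice (SD, n = 8 each), and 2 zQ175 mice exceeded every WT mouse. Fosb was likewise level, at 21.8 ± 2.34 and 23.1 ± 4.70 CPM (SD, n = 8 each). Their log2 fold changes were 0.05 ± 0.40 and 0.09 ± 0.15 (SE), so a change of the size seen in Egr3 is about 1 SE for Fos and was not detectable there.

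Arc, Npas4 and Nr4a1 are, like Fos, used as markers of recently active neurons. The mean of Arc was 141.5 ± 48.6 CPM in WT and 117.5 ± 46.4 CPM in zQ175 mice (SD, n = 8 each), and the ranges overlapped almost entirely. Npas4 was 8.70 to 29.4 CPM in WT mice and 5.88 to 39.3 CPM in zQ175 mice, the latter holding both the lowest and the highest value of the pair of groups. Nr4a1 had means of 101.1 ± 28.1 and 78.2 ± 26.2 CPM (SD, n = 8 each). The log2 fold changes of the 3 genes were between -0.38 and -0.26, and none was called (edgeR adjusted p from 0.484 to 0.669).

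The same allele was then followed on the Msh3-/- background. Here all 4 members of the Egr family were lower in zQ175:Msh3-/- than in Msh3-/- mice and no member was higher. By the same rule 10.6% of all genes tested were called, 5.96% as lower. Of the 10 fold changes, 9 were below 0 against 46.4% of those of all genes, with a median of -0.48 on the log2 scale against 0.01. Here too the members varied together, and the 10 are not separate observations.

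Egr2 again changed most. Its level was 3.06 CPM at the lowest, 15.1 at the median and 46.0 at the highest in Msh3-/- mice, and 2.08, 4.62 and 7.40 CPM in zQ175:Msh3-/- mice. All 8 zQ175:Msh3-/- mice lay below the Msh3-/- median, although 1 Msh3-/- mouse, F3, was lower than most of them. The log2 fold change was -1.86 ± 0.39 (SE; edgeR adjusted p = 0.000636; exact permutation p = 0.00684). Egr3 fell from a mean of 218.5 ± 36.5 to 150.8 ± 18.8 CPM (SD, n = 8 each), and 7 of the 8 zQ175:Msh3-/- mice were below every Msh3-/- mouse, a log2 fold change of -0.53 ± 0.096 (SE; edgeR adjusted p = 8.92e-05; exact permutation p = 0.000311).

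Egr1 was 162.9 to 274.2 CPM in zQ175:Msh3-/- mice, with a median of 250.4, and 176.5 to 564.7 CPM in Msh3-/- mice, with a median of 385.8 (log2 fold change -0.59 ± 0.18 SE; edgeR adjusted p = 0.0134; exact permutation p = 0.0222). Egr4, at chr6:85511121-85513589, was 27.9 to 51.9 CPM with a median of 43.0 in zQ175:Msh3-/- mice and 26.6 to 117.2 CPM with a median of 68.6 in Msh3-/- mice (log2 fold change -0.65 ± 0.21 SE; edgeR adjusted p = 0.0213). In both genes every zQ175:Msh3-/- mouse was below the Msh3-/- median while the ranges overlapped. The Egr4 call rested on Msh3-/- M2, its highest mouse, without which the log2 fold change was -0.46 and the edgeR adjusted p was 0.0811. The exact permutation test of Egr4 gave p = 0.0651, and on the log2 TPM scale neither Egr1 nor Egr4 was called by limma.

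**Figure D2:**
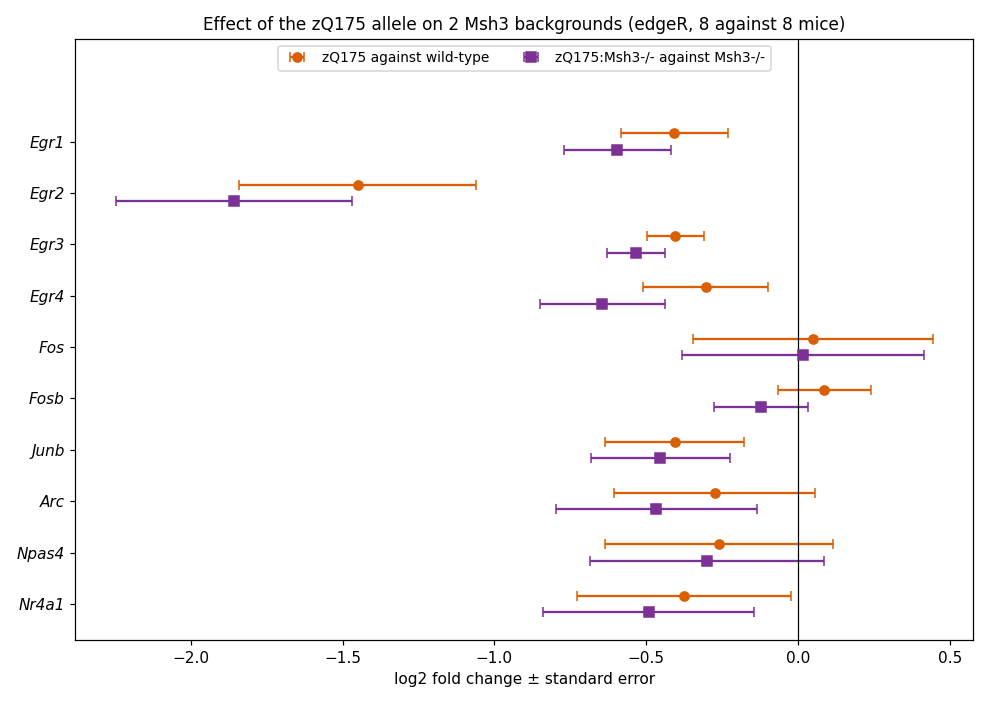
Log2 fold change of each member with the zQ175 allele, on the Msh3+/+ background (circles) and on the Msh3-/- background (squares), with bars of 1 standard error from edgeR. The 4 Egr genes lie left of 0 on both backgrounds with Egr2 farthest, at -1.45 and -1.86, and Fos and Fosb lie near 0.

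The other 6 members were not called on this background. Junb had means of 89.3 ± 41.8 CPM in Msh3-/- and 65.2 ± 17.8 CPM in zQ175:Msh3-/- mice (SD, n = 8 each; log2 fold change -0.45 ± 0.23 SE; edgeR adjusted p = 0.158). Fos was 15.5 ± 10.7 and 15.6 ± 6.13 CPM in the same groups (SD, n = 8 each), with a log2 fold change of 0.02 ± 0.40 (SE). Fosb, Arc, Npas4 and Nr4a1 had log2 fold changes of -0.12 ± 0.15, -0.47 ± 0.33, -0.30 ± 0.39 and -0.49 ± 0.35 (SE).

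When zQ175:Msh3-/- mice were set against WT mice, which serve as the control of the first comparison too, 6.49% of all genes were called as lower. Egr1, Egr2 and Egr3 were the members called, all lower, with log2 fold changes of -0.48 ± 0.18, -1.41 ± 0.39 and -0.49 ± 0.095 (SE; edgeR adjusted p = 0.0430, 0.00750 and 0.000216). The Egr1 call in this comparison was close to the threshold and was lost when any 1 of 10 mice was left out (WT F1, F2, F3, F4 and M4, and zQ175:Msh3-/- F1, F2, F3, M3 and M5), with a highest edgeR adjusted p of 0.0929. When the effect of the allele was averaged over both Msh3 genotypes, using all 32 mice, 13.7% of genes were called, 7.38% as lower, and 5 members were called, all lower. These were Egr1 at -0.50 ± 0.12, Egr2 at -1.65 ± 0.28, Egr3 at -0.47 ± 0.067, Egr4 at -0.47 ± 0.15 and Junb at -0.43 ± 0.16 (log2 fold change ± SE; edgeR adjusted p = 0.00182, 1.69e-05, 1.45e-06, 0.00994 and 0.0352). Junb lost its call when any 1 of 9 mice was left out (WT F1 and M1, Msh3-/- M1 and M2, zQ175 F4 and M2, and zQ175:Msh3-/- F1, F2 and M5), with a highest edgeR adjusted p of 0.0807, and Egr1 to Egr4 kept theirs in all 32 such fits. Nr4a1, at -0.43 ± 0.25 (SE; edgeR adjusted p = 0.173), had a change of the same size as Junb without passing.

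The lower Egr levels stood beside lower levels of the markers of spiny neurons and, to a smaller extent, of some other cell types. Of the 10 striatal spiny neuron markers, 9 were called lower in zQ175 than in WT mice, with a median log2 fold change of -0.81, and their summed level was 4397 to 5693 CPM in zQ175 against 8035 to 9870 CPM in WT mice. The summed level of 7 cortical markers without Nrgn went the other way at the median. It was 37.8 to 380.0 CPM with a median of 259.6 in zQ175 and 46.9 to 295.9 CPM with a median of 190.2 in WT mice. With Nrgn, the 8 cortical markers had a median log2 fold change of 0.54, 0 called higher and 1 lower. On the Msh3-/- background 9 of the 10 spiny neuron markers were again lower, with a median of -0.76 and sums of 4570 to 5642 against 7913 to 10220 CPM. The cortical sums without Nrgn were 127.0 to 641.1 CPM in zQ175:Msh3-/- and 48.7 to 446.3 CPM in Msh3-/- mice, with medians of 315.6 and 209.2 CPM. The 8 cortical markers had a median log2 fold change of 0.61 there, 0 called higher and 1 lower. The summed endothelial markers were 144.1 to 201.3 CPM in zQ175 and 202.0 to 227.7 CPM in WT mice, which do not overlap, and 163.2 to 191.0 against 177.5 to 231.9 CPM on the Msh3-/- background, and 2 and 1 of the 6 genes were called lower. The astrocyte sums were 1306 to 1518 CPM in zQ175 and 1491 to 1623 CPM in WT mice, and 1317 to 1491 against 1497 to 1619 CPM on the Msh3-/- background, with 0 of 6 genes called by edgeR in either. In whole striatum, fewer cells of a type and less RNA per cell cannot be told apart, and the part of the marker changes in the member values was not tested.

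Whether loss of Msh3 changed the members was asked on each Htt background. No member was called in zQ175:Msh3-/- against zQ175 mice or in Msh3-/- against WT mice, and in each comparison 0.00602% of all genes, which is 1 gene, was called. Between zQ175:Msh3-/- and zQ175 mice Egr2 had means of 4.71 ± 1.95 and 4.60 ± 1.90 CPM (SD, n = 8 each), with a log2 fold change of 0.04 ± 0.42 (SE). Egr3, the member measured most precisely, differed by -0.09 ± 0.096 (log2 ± SE). The 10 log2 fold changes ran from -0.24 for Npas4 to 0.36 for Nr4a1, 5 of them above 0, and none had an unadjusted edgeR p under 0.05, as did 3.70% of all genes. DESeq2 and limma called none of them either.

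Between Msh3-/- and WT mice the fold changes ran from -0.20 for Npas4 to 0.48 for Nr4a1 on the log2 scale. Of them 9 were above 0 and 1 below, where 50% of all genes were below 0. The standard errors were as large as these values for most members, and again no unadjusted p was under 0.05, against 5.09% of all genes, and DESeq2 and limma called no member. The difference between the zQ175 effects on the 2 backgrounds was tested as an interaction. It was below 0 for all 10 members, from -0.41 ± 0.55 for Egr2 to -0.03 ± 0.56 for Fos (log2 ± SE), and for 48.5% of all genes. As the members varied together between mice, the number on 1 side of 0 is not a number of separate observations. No member passed (edgeR adjusted p = 0.999 for each), and 0% of all genes did. No member had an unadjusted edgeR p under 0.05 in the interaction, as did 4.44% of all genes, and DESeq2 and limma called none. The same held for the Msh3 effect averaged over both Htt genotypes, where 0.00602% of genes and no member were called.

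The members varied between mice of 1 genotype more than most genes did. Their biological coefficient of variation in edgeR ran from 0.131 for Egr3 to 0.539 for Fos, with a median of 0.381, against a median of 0.0794 over all genes tested. Fos, Npas4, Egr2, Nr4a1 and Arc stood above the 98th percentile of all genes tested in this measure. Egr3 stood at percentile 73.3 and Fosb at 89.0. Relative to the spread typical of genes at their level, Nr4a1 was the most variable, at 7.06 times the trend, and Egr3 the least, at 1.71 times.

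The spread was widest in Msh3-/- mice for all 10 members, a group in which 27.4% of all genes tested had their widest spread. As the members varied together between mice, the 10 are not separate observations. The SD of log2 CPM of the members had a median of 0.84 in Msh3-/- mice, and of 0.39 in WT, 0.42 in zQ175 and 0.47 in zQ175:Msh3-/- mice, whereas over all genes the 4 medians were between 0.128 and 0.133. Among Msh3-/- mice, M2 had the highest and F3 the lowest value of all 10 members. Egr2 was 46.0 CPM in M2 and 3.06 CPM in F3, a ratio of 15.0, and Nr4a1 was 324.8 and 32.03 CPM, a ratio of 10.1. Egr3 differed least between these mice, at 293.2 against 174.3 CPM. Without M2 and F3 the Msh3-/- spread was the widest for 6 of the 10 members, against 28.9% of all genes, with a median SD of 0.572. The other groups kept all 8 mice, so a trimmed group was set against untrimmed ones. Fos and Egr3 were then widest in WT, Egr1 in zQ175 and Nr4a1 in zQ175:Msh3-/- mice.

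**Figure D3:**
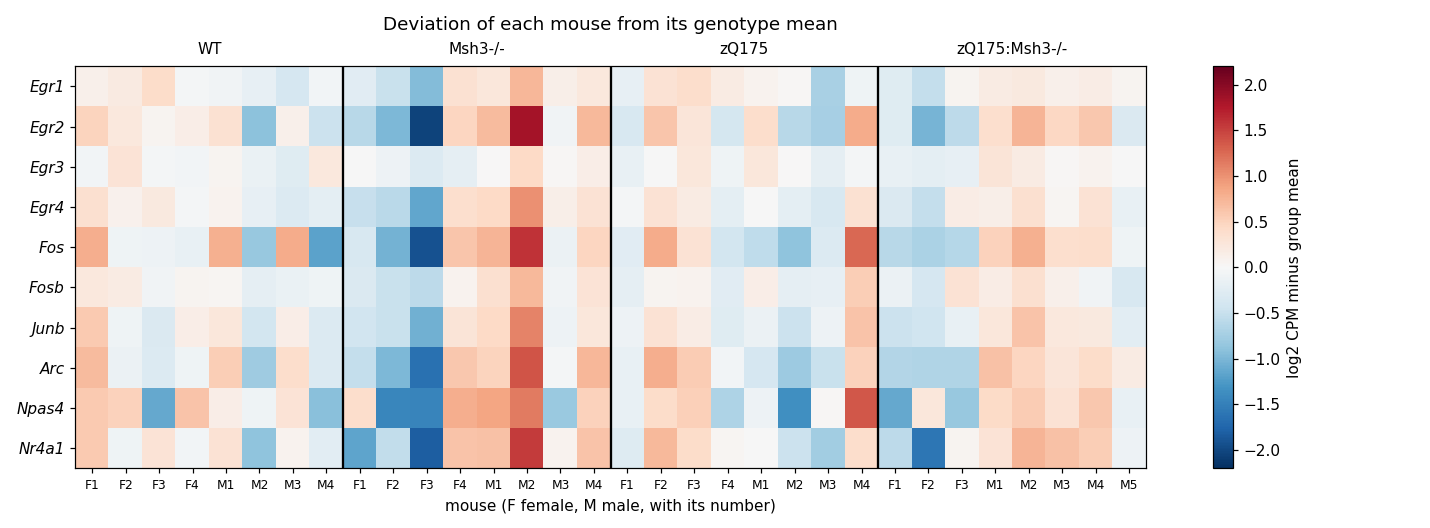
Deviation of log2 CPM of each member from its genotype mean, for each of 32 mice, on a scale from blue (below) to red (above). Columns are mostly of 1 colour, with Msh3-/- M2 red and Msh3-/- F3 blue in every row.

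Both mice had ordinary depth, at 19500657 and 19309188 reads. In M2 the summed striatal spiny neuron markers were at 10220 CPM, the highest of its group, and the 7 cortical markers without Nrgn at 48.7 CPM, the lowest of its group. In F3 the same sums were 8539 and 205.1 CPM, both within the range of the rest, and the summed thalamic and septal markers were the highest of its group, at 78.1 CPM against a group median of 56.2 CPM. F3 also had the highest share of mitochondrial counts of its group, 7.57% in a range from 6.21% with a median of 7.41%, though F4 was nearly equal at 7.56%. The astrocyte (1497 CPM) and microglia (319.8 CPM) sums of F3 were the lowest of its group. The part of these measures in the member values of either mouse was not tested. Without both mice, the zQ175 effect on the Msh3-/- background kept its 4 calls, Egr1 to Egr4, and Egr1 was called in zQ175 against WT mice as well (edgeR adjusted p = 0.0347).

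Members tended to be high in the same mice, though not in every mouse or genotype. After the genotype means were subtracted, the 45 pairs of members had Pearson r from 0.34 to 0.94 over 32 mice, with a median of 0.81, and Spearman rho from 0.33 to 0.92. By a permutation test of mice within genotype, 42 of the 45 pairs passed for r and 43 for rho (Benjamini-Hochberg adjusted p under 0.05 over the 45), the largest adjusted p for r being 0.0805, and 24 pairs were at 1e-05, the smallest p that 100000 permutations can give. The share of pairs of other genes that would pass was not computed, so these counts are not read as particular to the members. Fos and Junb were the closest pair (r = 0.94), and Egr3 and Npas4 the loosest (r = 0.34). Egr2 had the highest median r with the other 9, at 0.90, and Egr3 the lowest, at 0.56. When the 2 mice farthest from the median of the first gene of a pair were left out, r ran from 0.13 to 0.92 with a median of 0.73.

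**Figure D4:**
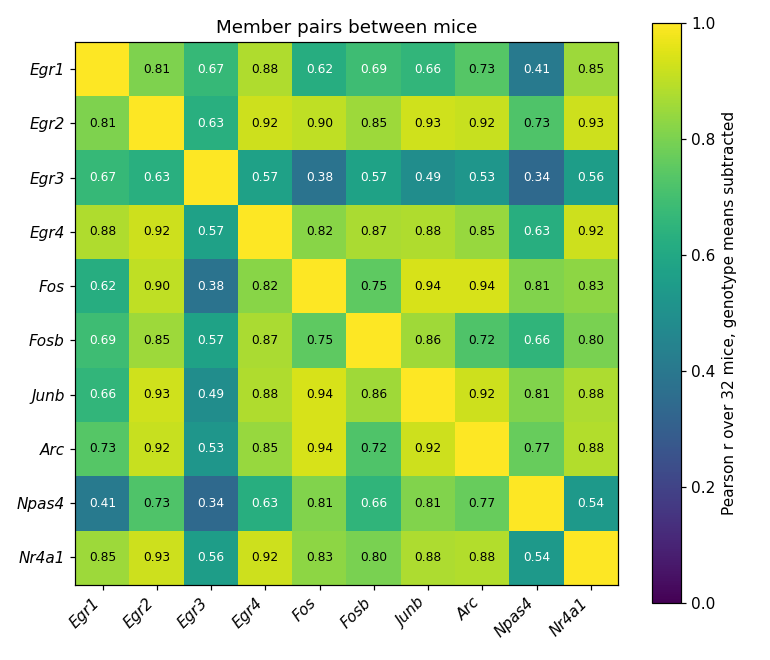
Pearson r of each pair of members over 32 mice after subtraction of the genotype means, on a colour scale from 0 to 1. Values run from 0.34 for Egr3 with Npas4 to 0.94 for Fos with Junb, and the rows of Egr3 and Npas4 are the lowest.

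Within each genotype, over 8 mice, the median r of the pairs was 0.958 in Msh3-/-, 0.765 in zQ175, 0.766 in zQ175:Msh3-/- and 0.469 in WT mice. In WT mice 8 of the 45 pairs were below 0, the lowest being Fos with Egr3 (r = -0.38), and WT M3 held the highest Fos and the lowest Egr1, Egr3 and Egr4 of its group. No pair was below 0 in the other 3 genotypes. These are given as descriptions, since mice M2 and F3 span the Msh3-/- range. The mean deviation of a mouse over the 10 members was set against 11 other measures of the same mouse. It did not follow depth (r = -0.05, permutation p = 0.818). The largest r were with the share of counts from mitochondrial transcripts (r = -0.42, permutation p = 0.0271, adjusted p = 0.196 over 11; rho = -0.47, permutation p = 0.00712, adjusted p = 0.0783) and with the cortical markers without Nrgn (r = -0.40, permutation p = 0.0357, adjusted p = 0.196; rho = -0.35, permutation p = 0.0678, adjusted p = 0.373). Without the 2 mice farthest from the median of the measure these r were -0.35 and -0.21, and the r with striatal spiny neuron markers fell from 0.32 to 0.11.

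Sex was one of the ways in which mice of a genotype differed. With genotype in the model, the log2 fold change of females over males was below 0 for all 10 members, from -0.54 for Fos to -0.07 for Egr1. It was below 0 for 49% of all genes, and as the members varied together, the 10 are not separate observations. No member was called, as against 0.169% of all genes. Only Egr3 had an unadjusted edgeR p under 0.05, at 0.0400, as against 9.31% of all genes, and DESeq2 and limma called no member. The lower female means lay mostly in the mice without Msh3. The female mean was the lower one in 10 of 10 members in Msh3-/- mice and in 10 of 10 in zQ175:Msh3-/- mice, but in 1 of 10 in WT and 4 of 10 in zQ175 mice. In zQ175:Msh3-/- mice, Arc was 71.4 to 72.2 CPM in the 3 females and 128.1 to 175.9 CPM in the 5 males. Fos and Egr3 also had every female below every male in that group. Fos was at 8.92 to 9.45 against 13.6 to 25.1 CPM, and Egr3 at 128.6 to 134.5 against 148.3 to 182.2 CPM. In that group 3 of the 10 members were so separated, and 2.61% of all genes tested. These 3 members varied together there (Arc with Fos r = 0.956, Arc with Egr3 r = 0.949), so they are not separate observations. The number was 1 of 10 in Msh3-/- mice, for Egr3, and 0 of 10 in WT and in zQ175 mice. For these groups, with 4 males and 4 females each, the share over all genes was not computed. The numbers are therefore not compared between genotypes.

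After these means had been seen, 1 model of all 32 mice was fitted with a sex effect for the 16 mice with Msh3 and another for the 16 without it. It describes the same mice that prompted it and is no independent evidence, and as the members varied together, the number of members on 1 side of 0 is not a number of separate observations. In mice without Msh3 the log2 fold change of females over males ran from -1.35 ± 0.33 for Egr2 to -0.31 ± 0.080 for Egr3 (SE), and in mice with Msh3 from 0.006 ± 0.14 for Fosb to 0.36 ± 0.29 for Nr4a1. No member passed after adjustment over all genes in either sex effect or in their difference. The smallest edgeR adjusted p was 0.0846, for Egr2 in the mice without Msh3, where 0.169% of genes passed, against 0.157% in mice with Msh3 and 0% for the difference. Unadjusted edgeR p under 0.05 were found for 9, 1 and 8 members in the same order, and for 10.9%, 8.33% and 9.34% of all genes. Without Msh3-/- M2 and F3 the median difference over the members went from -0.84 to -0.65 on the log2 scale. The median sex effect in mice without Msh3 then went from -0.73 to -0.49. The smallest edgeR adjusted p of a member went from 0.0846 to 0.418 in those mice, and from 0.183 to 0.429 for the difference.

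**Figure D5:**
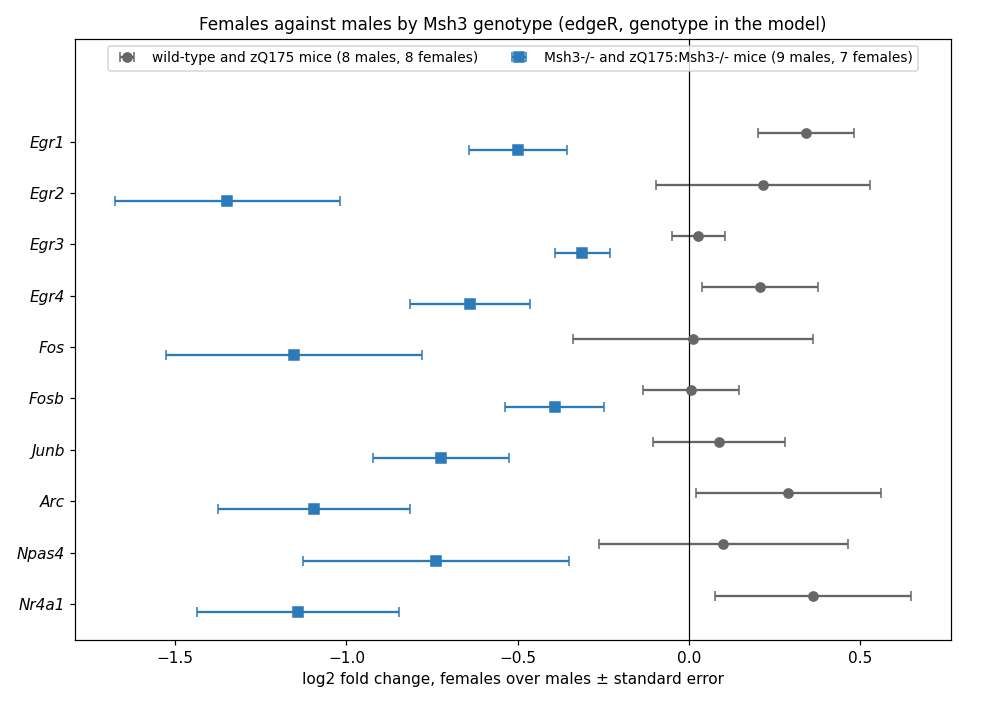
Log2 fold change of females over males for each member, from 1 model with a sex effect for WT and zQ175 mice (circles, 8 males and 8 females) and another for Msh3-/- and zQ175:Msh3-/- mice (squares, 9 males and 7 females), with bars of 1 standard error from edgeR. All squares lie left of 0, from -1.35 to -0.31, and all circles right of it, from 0.006 to 0.36, and none passed the adjustment over all genes.

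Genes outside the list whose variation between mice was most like that of the members were sought among 14922 genes with a mean of at least 1 CPM. The closest 10, by Pearson r of the within-genotype deviations with the mean of the members over 32 mice, were Dusp1 (r = 0.89), Sik1 (0.85), Arl4d (0.83), Dusp5 (0.82), Spry2 (0.82), Kdm6b (0.79), Kcnj2 (0.79), 1700003D09Rik (0.78), Gm47260 (0.78) and Zbtb21 (0.77). Dusp1 and Dusp5 encode phosphatases of MAP kinases, Sik1 a kinase induced by cAMP signalling, Spry2 an inhibitor of receptor tyrosine kinase signalling, Kdm6b a histone demethylase and Kcnj2 an inward rectifier potassium channel. Between zQ175 and WT mice 5 of the 10 were called, in both directions, against 11.6% of all genes tested. Dusp1, Spry2, Kcnj2 and 1700003D09Rik were lower, by 0.50, 0.37, 0.34 and 0.86 on the log2 scale, and Kdm6b was higher, by 0.36. Over all genes compared the median r was -0.007, and 29 genes had r of at least 0.7. The 10 were picked by this r on the same 32 mice. Without the 2 mice farthest from the median of the member mean, their r ran from 0.639 for Gm47260 to 0.873 for Dusp1.

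The other genes of the pathway were read from 4 lists in zQ175 against WT mice, where 11.6% of all genes were called. Of 17 other induced transcription factors, such as Jun, Nr4a2 and Atf3, 1 was called, Csrnp1, lower by 0.32 on the log2 scale. Of 24 induced signalling and feedback genes, 2 were higher and 6 lower, with a median log2 fold change of -0.17. Ptgs2, the inducible cyclooxygenase, rose by 0.57 ± 0.15 (log2 ± SE; edgeR adjusted p = 0.00415) and the kinase gene Plk3 by 0.35 ± 0.11. Dusp14, a phosphatase gene, changed by -0.68 ± 0.15, the kinase gene Pim1 by -0.52 ± 0.10 and Dusp1 by -0.50 ± 0.18 (log2 ± SE; edgeR adjusted p = 0.000642, 0.000152 and 0.0437).

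Of 17 genes listed as late-response effectors, which have varied roles, 1 was higher and 4 were lower. The time at which each is induced was not measured here. Inhba, the activin subunit, changed by -0.90 ± 0.11, Homer1, a postsynaptic scaffold gene with a short induced form that counts per gene do not separate, by -0.84 ± 0.092, and Cdkn1a, a cyclin-dependent kinase inhibitor gene, by -0.41 ± 0.092 (log2 ± SE; edgeR adjusted p = 7.39e-08, 2.55e-08 and 0.00068). Pcsk1, a prohormone convertase gene, rose by 0.53 ± 0.12. Of 30 upstream kinases, factors and coactivators, 7 were lower and none higher. Rps6ka5 and Rps6ka4, which encode the MSK kinases that phosphorylate CREB and histone H3, changed by -0.70 ± 0.058 and -0.63 ± 0.049, and Camk4, which encodes CaMKIV, by -0.67 ± 0.046 (log2 ± SE; edgeR adjusted p = 8.88e-12, 1.23e-12 and 4.17e-14).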

How the data were processed

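RNA was extracted by the authors from the striatum of 32 mice and sequenced as paired-end reads. The authors deposited raw counts per gene without normalization, and a second table named FPKM whose columns all have the same sum, as TPM values do, and which was used as TPM. The submitters' processing notes name GRCm38.p6. The aligner, the counting program and its strand setting are not given in the sources used here. Of 54532 Ensembl identifiers, 54495 matched a GENCODE M21 symbol. No column was left out.

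Counts were fitted by edgeR 4.0.16 in R 4.3.3 (TMM, filterByExpr by group, robust quasi-likelihood, 1 model of 4 genotypes), with Benjamini-Hochberg adjustment over 16610 genes, an adjusted p under 0.05 and a change of at least 1.2-fold, or the adjusted p alone for the interaction and for the sex effects fitted by Msh3 genotype. Single members were compared by two-sided exact permutation tests of log2 CPM with a prior count of 2. Pairs used Pearson r and Spearman rho with 100000 two-sided permutations. The scripts were tested on simulated data. Depth was 12359347 to 25030335 reads, so 3 reads equal 0.243 CPM in the shallowest mouse, counting error only. No 2 mice of a genotype had counts that differed by as little as sampling noise, the lowest chi-square per degree of freedom being 4.26.

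The alternatives were DESeq2 1.42.0 (the tool of the authors) without independent filtering, scaling by RLE, a filter dropped or set at 10 counts per mouse, a model with sex, the replicate number as a block, a fit of the 2 groups compared, limma 3.58.1 with a pseudocount of 0.1 or 1 TPM, each sex alone, other fold thresholds, and leaving out each mouse. Leaving out Msh3-/- M2 and F3 together, for the calls and the spread, and the sex effect by Msh3 genotype were added after seeing the data. The members and gene lists were chosen with earlier results of these data known. Named genes were the 10 members, Msh3, up to 3 raised and 3 lowered genes of each other list by size of change in zQ175 against WT mice, and the 10 genes most like the members. Promoter windows are from RefSeq, read with Python 3.11.15.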

Additional observations from a re-analysis of the deposited data

How the results depend on the processing

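The counts of members called did not move by over 1.5 times under DESeq2, RLE size factors, either filter on low counts, sex in the model or the fit of the 2 groups alone, and Egr2 and Egr3 were called under each of these in every comparison of the zQ175 allele that was fitted. In males alone, with 4 or 5 mice a group, no member was called in zQ175 against WT or in zQ175:Msh3-/- against WT mice (0 in each; Egr2 at -1.24 and Egr3 at -0.37 against WT in zQ175, log2), where all genes called went from 1925 to 1180 and from 1992 to 1244. In females alone 1 member was called in zQ175:Msh3-/- against Msh3-/- mice and 2 in the averaged zQ175 effect. All genes called went from 1768 to 1067 in the first and from 2276 to 1901 in the second. A threshold of 1.5-fold left 1 member, Egr2, in zQ175 against WT mice, in zQ175:Msh3-/- against WT mice and in the averaged effect, and left 6 of the 21 other listed genes. The share of all genes left at 1.5-fold was not computed, so these counts are descriptions. By limma on log2(TPM + 0.1), on log2(TPM + 1) and without a filter, 2 members were called in zQ175:Msh3-/- against Msh3-/- mice and 3 in the averaged effect. In the same order, all genes called were 2222, 1973 and 2131 in the first and 2871, 2102 and 2800 in the second. The genes tested were 22274, 22274 and 32848.

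Of 260 fold changes of members recomputed under these settings, 239 kept direction and side of the threshold, 13 no longer passed, 2 newly passed and 6 changed sign. Those that changed sign were near 0 in Fos (-0.0413 with sex in the model, -0.17 in males and -0.0146 in females, zQ175:Msh3-/- against Msh3-/-), Fosb (-0.10 in females against WT, 0.19 in females against Msh3-/-) and Npas4 (0.0268 in males against WT). Leaving out each mouse in turn gave 2 to 3 members in zQ175 against WT, 3 to 4 in zQ175:Msh3-/- against Msh3-/-, 2 to 3 in zQ175:Msh3-/- against WT and 4 to 5 in the averaged effect, and 19 to 23 other listed genes. Against WT, Fos then ran from -0.22 to 0.17 and Fosb from -0.00991 to 0.12, and against Msh3-/- Fos ran from -0.15 to 0.36 and Fosb from -0.20 to 0.00969, all log2. The cause of these shifts was not tested.

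The replicate numbers in the labels did not pair the mice: over all genes, the deviations of the 45 pairs of mice with the same sex and number had a median r of -0.03, from -0.39 to 0.41. With the number as a replicate block, 2, 3, 2 and 4 members were called in the 4 comparisons above, Egr4 losing its call against Msh3-/- (log2 fold change -0.59, edgeR adjusted p = 0.0785), Egr1 its call in zQ175:Msh3-/- against WT and Junb its call in the averaged effect. The between-mouse spread, as the median coefficient of variation of the members, was 0.381 with RLE size factors and 0.367 with sex in the model, and for the member pairs between mice the median r was 0.798 on log2(TPM + 1) and 0.80 with sex means subtracted.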

Other observations

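The other lists of the pathway were also read in zQ175:Msh3-/- against Msh3-/- mice, where 10.6% of all genes were called and which shares no mouse with zQ175 against WT. Over all genes, 1211 were called in the same direction in both, which is 62.9% of the 1925 called in zQ175 against WT and 68.5% of the 1768 called on the Msh3-/- background, and of the calls as lower 67.4% and 77.9%, so the counts below are descriptions and are not read as particular to a list. All 7 of the upstream kinases, factors and coactivators called lower in 1 comparison were called lower in the other, out of 30 listed. These were Camk2b, Camk4, Camkk2, Rps6ka4, Rps6ka5, Ppp3ca and Ppp3r1, which encode calcium/calmodulin-dependent kinases, MSK kinases and calcineurin subunits, and they are named here after their values were seen. The smallest change on the Msh3-/- background was that of Ppp3r1 (-0.29 ± 0.042, log2 ± SE) and the largest that of Rps6ka4 (-0.74 ± 0.049; edgeR adjusted p = 3.40e-14). Of 17 late-response effector genes, 5 were called lower and 1 higher, and 5 of these 6 were among the 5 called in zQ175 against WT mice, Homer1, Inhba, Grasp and Cdkn1a being lower and Pcsk1 higher in both. Of 24 feedback genes, 7 were lower and 1, Ptgs2, was higher, and 6 of the 8 were called in both comparisons.

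Among the other induced transcription factors, Csrnp1 alone was called in zQ175 against WT mice, and Fosl1, Ier5 and Klf2 were called in zQ175:Msh3-/- against Msh3-/- mice, with log2 fold changes of -0.42, -0.36 and -0.66, out of 17 listed. No call was shared, which does not show a difference between the backgrounds: in the test of that difference, the interaction, no gene passed by edgeR and 4.44% of all genes had an unadjusted p under 0.05.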
